A study of Mus musculus with 8 samples.

Results

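Precursor-only miRNA sequences are reads that matched a mouse miRNA hairpin in the deposited table but no annotated mature miRNA, most of them extending past a mature end. They were taken as the distinct sequences whose every hit was a mouse precursor name, with no mature name and no tRNA hit. This gave 287 of 11568 distinct sequences, beside 652 with a mature hit. The RNA came from MIN6B1 cells, a mouse insulinoma line, transfected by Lipofectamine with 1 of 2 plasmids, a control or one encoding the HENMT1ΔC-T6B methyltransferase. Each RNA was either left non-oxidized or oxidized with sodium periodate (NaIO4), which gave 4 groups of 2 libraries. The labels number the libraries as replicates 1 and 2 without saying whether they were separate cultures, so every p-value measures the spread between these libraries, which may be technical.

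A miRNA hairpin is cut by Drosha in the nucleus and by Dicer in the cytoplasm, and the strand kept in Argonaute is the mature miRNA. Bases 2 to 8, the seed, do most of the pairing to targets. Cuts are not exact to the base, and enzymes can add or trim bases at the 3′ end, so most miRNAs exist as a ladder of isoforms with a shared 5′ end. The HENMT1ΔC-T6B fusion was built to add a methyl group to the 3′ end of Argonaute-bound small RNAs, and periodate blocks the cloning of RNAs whose 3′ end is not methylated.

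Each isoform was set against the most abundant sequence of its own mature miRNA in the table. Such a sequence was found for 243 isoforms, from 91 mature sequences. Of these 91, 61 were identical to the RefSeq mature sequence, 15 differed from it and 15 had no entry matched by name. Relative to it, 163 isoforms kept the 5′ end and were longer at the 3′ end, 20 were longer at the 5′ end only, and 59 differed at both ends. The remaining 1 had both ends alike and 1 differing base. The 3′ extension at an equal 5′ end was 1 base in 94 isoforms, 2 in 40, 3 in 19 and 4 in 6. Lengths ran from 17 to 74 nucleotides with a median of 23, and 258 isoforms had 21 to 25.

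The miR-16-5p, miR-138-5p and miR-7a-5p ladders are shown because they carry the opposite outcomes described below. In the mature sequence the capitals mark the seed, and in the isoforms they mark the bases added past the mature end. All are DNA letters as in the deposited table, 5′ to 3′.
miR-16-5p mature: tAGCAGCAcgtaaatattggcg
miR-16-5p+T: tagcagcacgtaaatattggcgT
miR-16-5p+TT: tagcagcacgtaaatattggcgTT
miR-16-5p+TA: tagcagcacgtaaatattggcgTA
miR-138-5p mature: aGCTGGTGttgtgaatcaggccg
miR-138-5p+T: agctggtgttgtgaatcaggccgT
miR-138-5p+TT: agctggtgttgtgaatcaggccgTT
miR-138-5p+A: agctggtgttgtgaatcaggccgA
miR-7a-5p mature: tGGAAGACtagtgattttgttgt
miR-7a-5p+T: tggaagactagtgattttgttgtT
miR-7a-5p+TT: tggaagactagtgattttgttgtTT
miR-7a-5p+TTT: tggaagactagtgattttgttgtTTT
miR-7a-5p+TG: tggaagactagtgattttgttgtTG
miR-7a-5p+TGT: tggaagactagtgattttgttgtTGT
These 3 mature sequences have 3 different seeds, and the 3′ extensions leave the seed as it is. Across all 243 isoforms with a mature sequence, 170 had the same seed bases and 73 had others.

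The extended sequence often matched a single hairpin where the mature sequence matched several. For 41 isoforms the hits named 1 precursor although the mature sequence was listed under several. The TT ending of miR-16-5p matches mir-16-1 (chr14:61631934-61631957, minus strand, GRCm38.p6, in an intron of Dleu2). The TA ending matches mir-16-2 (chr3:69009918-69009941, plus strand, in an intron of Smc4). The T and TT endings of miR-138-5p match mir-138-1 (chr9:122682898-122682922, plus strand, in an exon of Gm47135), and the A ending to mir-138-2 (chr8:94324312-94324335, plus strand, in an exon of C78859). For miR-7a-5p, TT and TTT match mir-7a-1 (chr13:58392838-58392863, minus strand, in an intron of Hnrnpk), and TG and TGT match mir-7a-2 (chr7:78888295-78888320, plus strand). A match does not settle the origin of a read, since its added bases may not come from the hairpin.

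Some sequences went against a purely templated reading of the set. Of the 287 isoforms, 29 were deposited with no genomic match. Counted separately over all 287, 24 differed from their mature sequence at 1 base within the overlap, and 3 contained an undetermined base. An exact match to a RefSeq hairpin was found for 223. Of the 202 isoforms longer at the 3′ end, the added bases were all T in 75 and all A in 29, and here a base read from the hairpin cannot be told apart from one added by a tailing enzyme. The most frequent addition was 1 base, in 116 isoforms, of which 63 added T.

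Listed sequences held 295094 to 6641250 counts per library, the lowest in oxidized control RNA. In the smallest library a sequence at 0 could still make up 0.00102% of counts, the level of 3 counts. The beta-cell miRNAs miR-375-3p and miR-7a-5p were abundant, at 567527 and 559007 and at 314142 and 467026 counts over their mature-hit sequences in non-oxidized control RNA. The other 2 markers on that list, miR-153-3p and miR-184-3p, were at 108 and 160 and at 376 and 325 counts. None of the blood, muscle and fibroblast markers looked for was listed. The neuron markers miR-9-5p and miR-124-3p were listed at 3035 and 3139 and at 515 and 232 counts, and the endothelium marker miR-126a-3p at 248 and 311. The liver marker miR-122-5p was at no more than 463 counts there, and at 888 and 642 with the methyltransferase before oxidation. The part of other cell types in the results was not tested. Over the 287 isoforms, Pearson's r between replicate libraries on the log2 scale was 0.98, 0.72, 0.97 and 0.94 for control, oxidized control, methyltransferase and oxidized methyltransferase RNA, as a description, since isoforms of 1 miRNA are not independent.

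Isoforms were a large minor fraction of the miRNA pool. With the control plasmid they summed to 824009 and 1044002 counts before oxidation and 374 and 459 after it. With the methyltransferase the sums were 422561 and 542818 before and 220216 and 148804 after oxidation. As a share of all mature and precursor-only counts, this was, in the same order, 19.1% ± 0.191, 3.49% ± 1.20, 15.5% ± 0.490 and 9.01% ± 1.00 (SD, n = 2 each). The share was thus lower after oxidation with either plasmid, and the 2 libraries of each group did not overlap those of the others. With 2 libraries against 2, the smallest p of an exact permutation test (two-sided) is 0.33, which was reached in each of these comparisons (adjusted p = 0.467 over 28 tests of shares). A single sequence, miR-7a-5p+T, made up much of the total. Without it the shares were 10.2% ± 0.649, 2.53% ± 0.337, 8.30% ± 0.382 and 4.54% ± 0.340 (SD, n = 2 each).

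**Figure D1:**
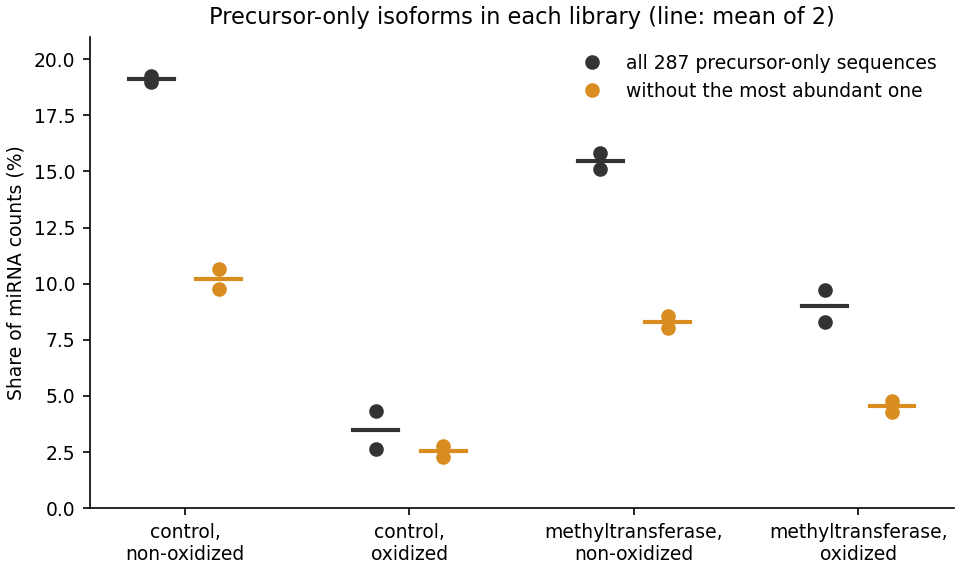
Share of all mature and precursor-only miRNA counts held by precursor-only sequences (y axis, percent) in the 4 groups (x axis). Points are the 2 libraries, lines their mean; black is all 287 sequences and orange leaves out the most abundant. The means were 19.1%, 3.49%, 15.5% and 9.01% from left to right in black.

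In 20 miRNAs an isoform outnumbered the mature sequence. There 22 isoforms had a higher mean in non-oxidized control RNA than the most abundant mature sequence. The miR-30 family, broadly expressed and encoded by several hairpins, showed this with a 2-base extension in 3 members that share 1 seed, capitalized in the mature sequences and followed by the isoform.
miR-30e-5p mature: tGTAAACAtccttgactggaag
miR-30e-5p+CT: tgtaaacatccttgactggaagCT
miR-30d-5p mature: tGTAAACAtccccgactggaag
miR-30d-5p+CT: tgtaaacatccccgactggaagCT
miR-30a-5p mature: tGTAAACAtcctcgactggaag
miR-30a-5p+CT: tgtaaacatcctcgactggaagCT
miR-30e-5p+CT (chr4:120772658-120772681, minus strand, in an intron of Nfyc) had 53634 and 58444 counts in non-oxidized control RNA, where the mature sequence had 2844 and 3458. Isoforms made up 94.9% ± 0.432 of all listed miR-30e-5p counts there (SD, n = 2), 90.7% ± 0.656 for miR-30a-5p and 86.4% ± 0.668 for miR-30d-5p. The same held for miR-425-5p at 95.6% ± 0.701, miR-26b-5p at 92.6% ± 0.739, miR-342-3p at 89.7% ± 0.360, miR-200a-3p at 72.7% ± 0.949 and miR-7a-5p at 57.4% ± 0.914 (SD, n = 2 each).

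The first comparison asks which isoforms remained in oxidized RNA when the methyltransferase was present. Of the 287 isoforms, 257 passed the filter on low counts. With edgeR's quasi-likelihood test over the whole table and Benjamini-Hochberg adjusted p under 0.05, 248 were higher with the methyltransferase than with the control plasmid and 0 were lower. Of all 9851 sequences tested, 42.3% were higher and 3.92% lower. Sequences with a mature hit behaved much like the isoforms, with 518 of 607 higher and 1 lower. The median log2 difference was 7.42 for the isoforms, 6.49 for sequences with a mature hit and 0.82 for all sequences. In oxidized control RNA 233 of 287 isoforms had 0 counts in both libraries, so most of the isoforms' fitted values depend on the prior count and give no size. Every listed sequence has at least 2 counts in both libraries of oxidized methyltransferase RNA, and 10 or more when these are added, so counts in that group were required for listing. For isoforms at 0 in oxidized control RNA the direction was thus fixed, and their calls support nothing. With the miRNA sequences fitted alone, 125 isoforms were higher and 8 lower. The share over all sequences of that fit is not given here, so it is not read as particular to the isoforms.

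For isoforms at 0 in oxidized control RNA a lower bound was taken on shares of all listed counts, with that group at 3 counts per library. The widest was for a miR-375-3p sequence with a T before its 5′ end (chr1:74900661-74900683, minus strand), which shifts the seed. miR-375 is an islet miRNA that restrains insulin secretion and is needed for normal beta-cell mass.
miR-375-3p mature: tTTGTTCGttcggctcgcgtga
T+miR-375-3p: Ttttgttcgttcggctcgcgtga
T+miR-375-3p was at 0 and 0 counts after oxidation with the control plasmid and at 2093 and 2573 with the methyltransferase, so it was at least 102-fold higher in the latter. By the same rule let-7f-5p+T was at least 84.7-fold higher (0 and 0 against 2593 and 1478 counts). A miR-483 sequence with no mature sequence of its arm in the table was at least 60.0-fold higher (0 and 0 against 1985 and 931). miR-16-5p+T was at least 31.9-fold higher (0 and 0 against 921 and 601).

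The 9 tested isoforms that were not called were all assigned to mir-5099, mir-677 or mir-375. All 9 had reads in oxidized control RNA. The shortest mir-5099 sequence, of 17 nucleotides, had 30 and 21 counts with the control plasmid before oxidation and 78 and 79 after it. With the methyltransferase it had 35 and 52 counts, and 46 and 82 after oxidation. A mir-5099 sequence of 20 nucleotides, tcttagatcgatgtggtgct, had 477 and 547, then 21 and 13, then 357 and 432, then 17 and 12 counts in the same order of groups. The oxidized groups of this sequence overlapped (log2 difference -0.12, edgeR adjusted p = 0.854). It had no genomic match in the deposited table. A mir-677 sequence of 68 nucleotides had, after oxidation, 21 and 2 counts with the control plasmid and 8 and 9 with the methyltransferase. The 44 isoforms with no mature sequence, which include mir-5099 and mir-677, made up 1.36% ± 0.0301 of miRNA counts in oxidized control RNA (SD, n = 2) and 0.124% ± 0.0374 in non-oxidized control RNA.

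Oxidation of control RNA gave the mirror image. Of 257 tested isoforms 254 were lower and 1 was higher after oxidation, against 46.4% lower and 18.4% higher among all 9851 sequences (edgeR, adjusted p under 0.05). Of 607 tested sequences with a mature hit, 563 were lower and 1 was higher. With the miRNA sequences fitted alone, 130 isoforms were lower and 7 higher, and the share over all sequences of that fit is not given here. The higher one of the fit to all sequences, a mir-677 sequence of 28 nucleotides named here after its values were seen, went from 0 and 4 to 34 and 10 counts. Its log2 change was 2.93 ± 1.16 (SE, edgeR adjusted p = 0.0457), and this count was 0 without either non-oxidized control replicate 1, oxidized control replicate 1 or oxidized methyltransferase replicate 2. The interaction of plasmid and oxidation, which tests whether oxidation acted differently with the 2 plasmids, was positive for 246 isoforms and negative for 0, against 39.6% and 3% of all sequences. It was positive for 520 of 607 sequences with a mature hit and negative for 0. This term rests on oxidized control RNA, where most isoforms were at 0.

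Before oxidation no isoform was called higher or lower with the methyltransferase, and the share called was 0% of all 9851 sequences. The smallest adjusted p was 0.26 by edgeR, and before adjustment 2 isoforms were higher and 68 lower with p under 0.05. The DESeq2 Wald test called 19 lower. The share over all sequences is not given here for the unadjusted or DESeq2 counts, so neither is read as particular to the isoforms. The median log2 difference was -0.72 for the isoforms and 0.05 for all sequences, and the shares of miRNA counts given above, lower with the methyltransferase, did not overlap.

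Within methyltransferase RNA, oxidation left the isoforms unequally. By edgeR 88 of 257 were lower and 0 higher after oxidation, against 11.2% lower and 1.77% higher of all sequences. Of 607 sequences with a mature hit, 251 were lower and 0 higher. Leaving out oxidized methyltransferase replicate 1 or 2 reduced the 88 to 55 or 51. The median log2 change was -1.22 for the isoforms, -1.39 for sequences with a mature hit and 0.09 for all sequences. This split depended on the scaling: 7 higher and 37 lower by total counts, 6 and 42 with upper quartile factors, and 43 and 38 when only miRNA sequences were fitted. Shares over all sequences under these scalings are not given here, so these counts are not read as particular to the isoforms. Those scalings moved the median of all sequences by 0.86, 0.77 and 1.39 on the log2 scale. The ratio of each isoform to its own mature sequence does not depend on the scaling and is used from here on.

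The ratio was tested with limma on log2((isoform + 0.5)/(mature + 0.5)) in the 6 libraries other than oxidized control RNA, which had too few counts. It was taken for 544 miRNA sequences with a mean of at least 20 counts, 182 of them precursor-only isoforms of 78 mature sequences. After oxidation of methyltransferase RNA 50 isoforms had gained on their mature sequence and 38 had lost, with log2 changes from -3.70 to 6.59. These are 27.5% and 20.9% of the isoforms, near the 26.5% and 20.4% of all 544 sequences that gained and lost. Isoforms of the same mature sequence share its count, so their ratios are not independent. With 1 isoform per mature sequence, 21 gained and 20 lost. Before oxidation, no ratio differed between plasmids by limma (0 of 182, and 0% of 544). There, before adjustment, 19 were higher and 15 lower with p under 0.05, the smallest adjusted p was 0.0674, and a fit of those 4 libraries alone called 9 higher and 7 lower. The share over all miRNA sequences is not given here for the unadjusted or 4-library counts, so neither is read as particular to the isoforms.

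**Figure D2:**
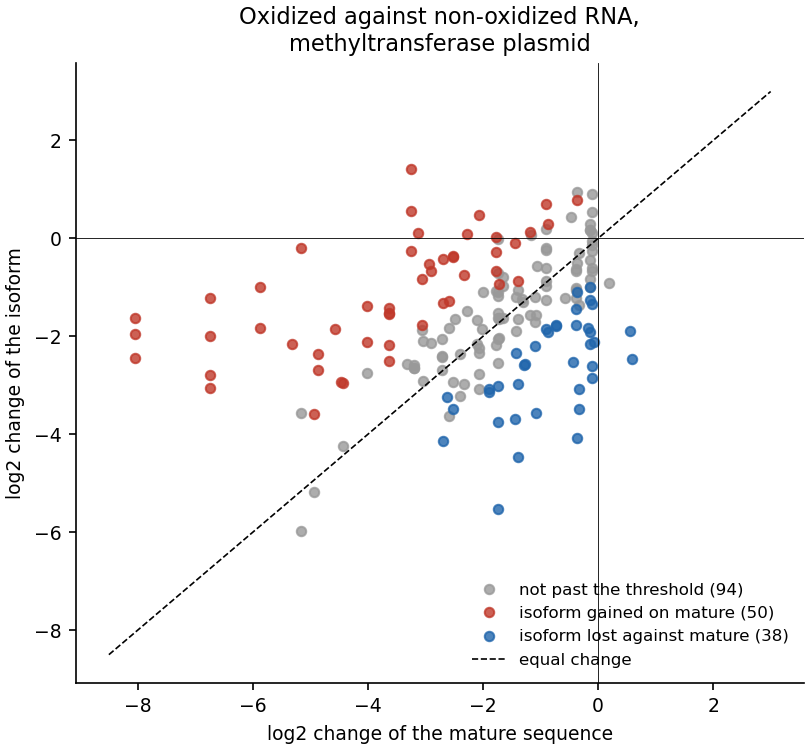
Log2 change from non-oxidized to oxidized methyltransferase RNA for 182 isoforms (y axis) against that of their own mature sequence (x axis), both from edgeR. Red points (50) gained on the mature sequence, blue points (38) lost against it and grey points did not pass the threshold; the dashed line is equal change. Red points lie mostly where the mature sequence fell far. The mature count is the denominator of the ratio, so this placement follows in part from how the ratio is formed.

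The widest gains were in ladders of mature sequences that fell far, which a ratio to the mature count favours by its form. Mature miR-138-5p, a miRNA known from neurons, went from 1678 and 1575 to 12 and 3 counts, a log2 change of -8.04 ± 0.61 (SE, edgeR adjusted p = 2.6e-05). miR-138-5p+T went from 510 and 470 to 187 and 121 counts. It was thus below the mature sequence before oxidation and above it after. Its ratio rose by 6.24 ± 0.37 on the log2 scale (SE, limma adjusted p = 1.7e-05). miR-138-5p+TT, which went from 113 and 94 to 34 and 13 counts, rose by 5.68 ± 0.29 in ratio (limma adjusted p = 1.4e-05). miR-138-5p+A, which matches mir-138-2, went from 138 and 104 to 56 and 39 counts and rose by 6.59 ± 0.44 (limma adjusted p = 2.8e-05). The isoform share of listed miR-138-5p counts was 36.4% ± 0.540 in non-oxidized control RNA, 27.2% ± 1.05 in non-oxidized and 74.3% ± 1.39 in oxidized methyltransferase RNA (SD, n = 2 each).

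miR-16-5p, whose seed family is known for restraining the cell cycle, showed the same ladder. Its mature sequence went from 145502 and 188275 to 2389 and 1386 counts. miR-16-5p+T (chr14:61631935-61631957 in mir-16-1, with mir-16-2 as a second hit) went from 4139 and 4477 to 921 and 601. It stood at 4.77% and 4.66% of the mature count in non-oxidized control RNA, 2.84% and 2.38% in non-oxidized methyltransferase RNA, and 38.6% and 43.4% after oxidation. The ratio rose by 3.97 ± 0.15 (SE, limma adjusted p = 6.3e-06). miR-16-5p+TT went from 274 and 343 to 71 and 21 counts, and miR-16-5p+TA from 29 and 18 to 18 and 7. Their ratios rose by 3.54 ± 0.33 and 5.52 ± 0.50 (SE, limma adjusted p = 0.00013 and 0.00011). All 4 tested isoforms of the miR-15/16 family gained, with a median of 4.22. All 4 were of miR-16-5p and share its mature count, so their gains are not independent.

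miR-7a-5p, the most abundant isoform source here and a brake on insulin secretion in beta cells, lost most in its longer T-ended forms. With the control plasmid miR-7a-5p+T went from 404341 and 571312 counts to 51 and 171 on oxidation, and with the methyltransferase from 211562 and 276583 to 117530 and 74978. It exceeded its mature sequence in the 3 groups other than oxidized control RNA, at 218% and 192.4% before and 204% and 250% after oxidation with the methyltransferase. Its ratio did not pass the threshold (0.14 ± 0.12, limma adjusted p = 0.34). miR-7a-5p+TT went from 11.3% and 11.5% of the mature count to 2.53% and 3.28%, a log2 change of -1.98 ± 0.15 (SE, limma adjusted p = 5.2e-05). miR-7a-5p+TTT went from 324 and 461 to 11 and 9 counts, and its ratio changed by -3.70 ± 0.29 (limma adjusted p = 5.2e-05). Of the endings that match mir-7a-2, miR-7a-5p+TG changed by -1.26 ± 0.19 (limma adjusted p = 0.0014), while miR-7a-5p+TGT, 1 base longer, did not pass the threshold (0.05 ± 0.32, limma adjusted p = 0.9).

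**Figure D3:**
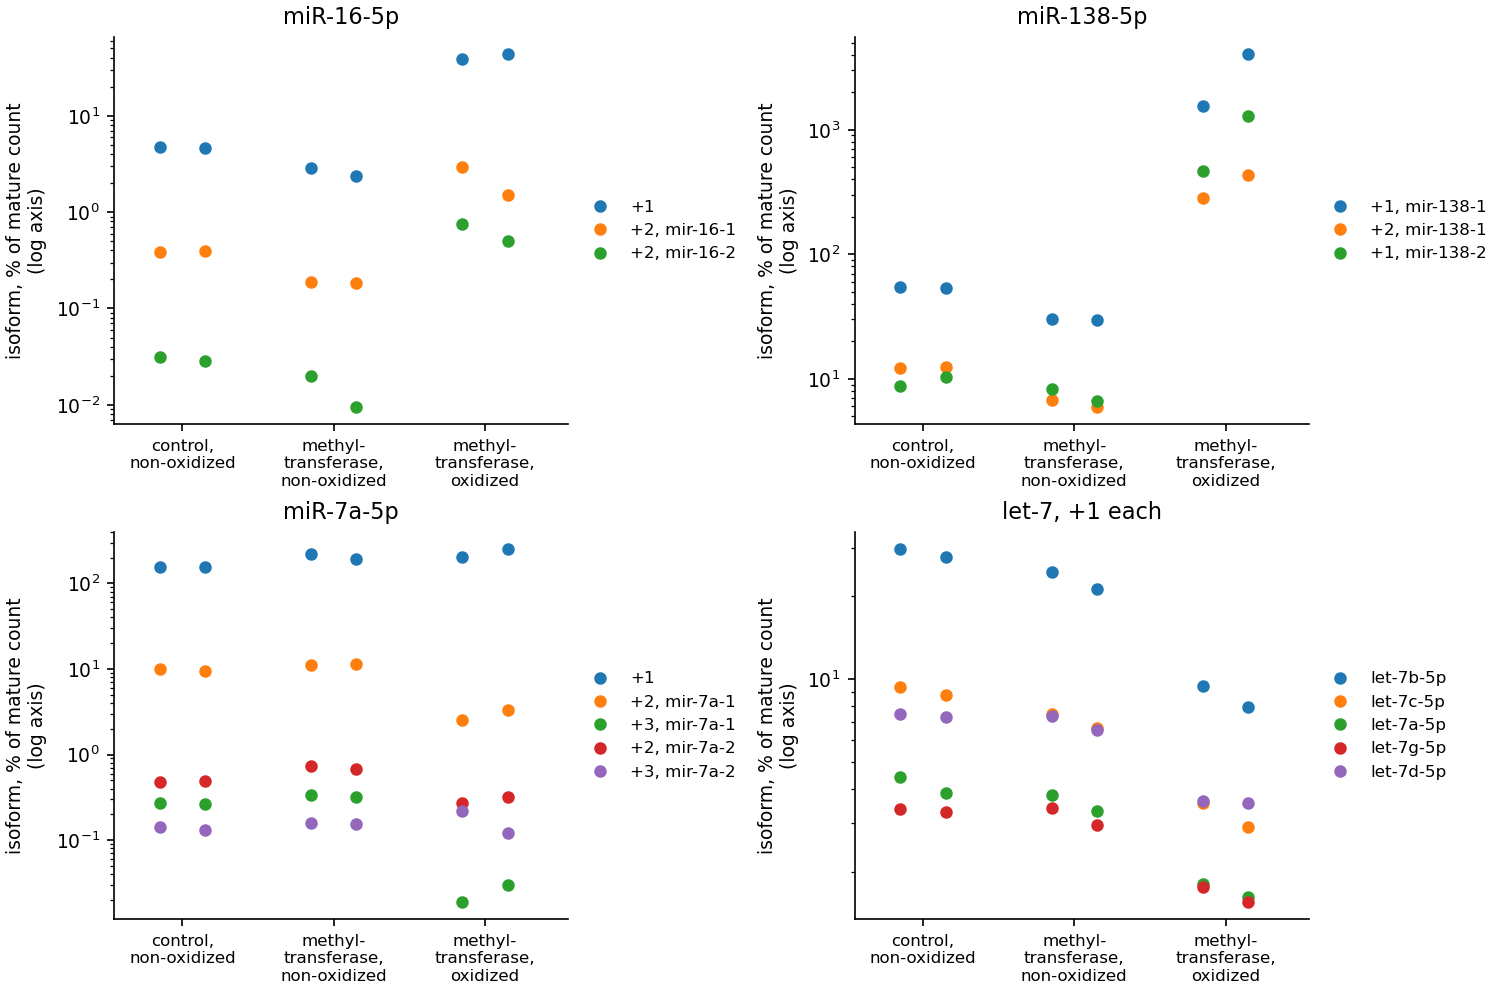
Isoform count as a percentage of its mature sequence's count (y axis, log scale) in the 2 libraries of each of 3 groups (x axis) for isoforms of miR-16-5p, miR-138-5p, miR-7a-5p and 5 let-7 miRNAs; +1, +2 and +3 give the number of added 3′ bases. Points of miR-16-5p and miR-138-5p rise after oxidation, those of the 5 let-7 miRNAs drawn (let-7a, let-7b, let-7c, let-7d and let-7g) and of miR-7a-5p+TT fall. Isoforms of let-7e, let-7f and let-7i are not drawn. miR-16-5p+T stood at 38.6% and 43.4% after oxidation.

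In the let-7 family, known for promoting differentiation, 13 of 32 tested isoforms lost against their mature sequence and 1 gained, with a median of -0.73. The let-7b-5p and let-7c-5p ladders are shown because they hold the family's most abundant isoforms, with the shared let-7 seed in capitals in the mature sequences.
let-7b-5p mature: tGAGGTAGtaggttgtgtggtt
let-7b-5p+T: tgaggtagtaggttgtgtggttT
let-7c-5p mature: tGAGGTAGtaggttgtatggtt
let-7c-5p+T: tgaggtagtaggttgtatggttT
let-7c-5p+TT: tgaggtagtaggttgtatggttTT
let-7c-5p+TA: tgaggtagtaggttgtatggttTA
let-7b-5p+T (chr15:85707325-85707347, plus strand, in an exon of Lncppara) went from 83889 and 94346 counts to 20 and 8 when control RNA was oxidized, and from 53476 and 62800 to 26406 and 15320 in methyltransferase RNA. Its mature sequence had 219190 and 295312, then 280840 and 193595 counts with the methyltransferase before and after oxidation. The isoform went from 24.4% and 21.3% to 9.40% and 7.91% of it, a ratio change of -1.40 ± 0.13 (SE, limma adjusted p = 1.0e-04). let-7c-5p+T went from 7.49% and 6.62% to 3.55% and 2.90%, a change of -1.13 ± 0.13 (limma adjusted p = 0.00042), and let-7a-5p+T changed by -1.06 ± 0.15 (limma adjusted p = 0.0011). In methyltransferase RNA let-7f-5p+T went from 3301 and 4326 to 2593 and 1478 counts on oxidation. Its mature sequence went from 85334 and 115365 to 62116 and 50245. The let-7f-5p+T ratio change ranged from -0.37 to 0.13 when 1 library was left out, so it had no steady direction. The 2 let-7c hairpins differ in the next base. let-7c-5p+TT, which matches let-7c-2, fell from 0.299% and 0.263% to 0.0738% and 0.0644% (change -2.02 ± 0.18, limma adjusted p = 1.0e-04). let-7c-5p+TA, which matches let-7c-1, stood at 0.0279% and 0.0247% before and 0.0339% and 0.0311% after oxidation (0.31 ± 0.23, limma adjusted p = 0.29). The difference between those 2 isoforms was not tested.

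Isoforms of the miR-26 family gained throughout, at 6 of 6 tested and a median of 2.08. Most were of miR-26b-5p and share its mature count, so their gains are not independent. miR-26b-5p+T (chr1:74394324-74394345, plus strand, in an intron of Ctdsp1) had 12929 and 15955 counts before and 3619 and 3932 after oxidation of methyltransferase RNA, while the mature sequence went from 800 and 631 to 62 and 74. Its ratio rose by 1.45 ± 0.22 (SE, limma adjusted p = 0.0014). In the cluster of miR-182, miR-183 and miR-96, known from sensory cells, 5 of 7 gained and 1 lost. miR-182-5p+G, the highest of them, went from 5.17% and 4.14% to 160% and 117% of its mature sequence, a rise of 4.88 ± 0.29 (limma adjusted p = 1.7e-05). Both tested isoforms of the miR-17 family gained, among them miR-93-5p+T, which rose by 2.73 ± 0.17 (limma adjusted p = 2.3e-05). miR-1224-5p+GGT rose by 4.70 ± 0.34 (limma adjusted p = 3.8e-05), and its count was 24 and 74 before and 237 and 83 after oxidation.

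Losses were also wide outside miR-7a-5p. let-7i-5p+G went from 0.181% and 0.188% to 0.0128% and 0.0154% of its mature sequence (-3.65 ± 0.27, limma adjusted p = 4.6e-05). miR-129-5p+TG, at 164 and 255 counts before and 37 and 9 after oxidation, changed by -3.34 ± 0.37 (limma adjusted p = 0.00031). miR-3099-3p+T went from 33.5% and 25.3% to 3.56% and 3.31% of its mature sequence, which had 1342 and 2404 counts before and 3767 and 2928 after oxidation (-3.08 ± 0.22, limma adjusted p = 3.8e-05). A miR-375-3p sequence with an added 5′ T and 3 bases fewer at the 3′ end changed by -2.98 ± 0.39 (limma adjusted p = 0.00083). T+miR-375-3p itself gained by 0.53 ± 0.13 (limma adjusted p = 0.015), a call that was lost without non-oxidized methyltransferase replicate 1 (0.47, limma adjusted p = 0.099) or 2 (0.59, limma adjusted p = 0.062).

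The dominant miR-30 isoforms fell with their mature sequences. miR-30e-5p+CT went from 15658 and 23402 to 383 and 348 counts in methyltransferase RNA, the lowest log2 change of the 257 tested isoforms (-5.98 ± 0.44, edgeR adjusted p = 1.2e-05). With the control plasmid it had 7 and 8 counts after oxidation. Its mature sequence changed by -5.16 ± 0.68, and the ratio of the 2 did not pass the threshold (-0.58 ± 0.52, limma adjusted p = 0.38). The ratios of miR-30d-5p+CT and miR-30a-5p+CT were 0.21 ± 0.38 and -0.06 ± 0.75 (limma adjusted p = 0.68 and 0.95). Of 9 tested miR-30 isoforms, 7 were lower after oxidation by count and 3 gained and 2 lost by ratio.

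Ratios could go opposite ways within 1 ladder. This was so for 6 mature sequences, miR-375-3p, miR-676-3p, miR-598-3p, miR-183-5p, miR-151-5p and let-7e-5p, named here because both directions were called. Isoforms of 3 of them are shown, where 1 more base went with the other direction.
miR-676-3p mature: cCGTCCTGaggttgttgagct
miR-676-3p+G: ccgtcctgaggttgttgagctG
miR-676-3p+GT: ccgtcctgaggttgttgagctGT
let-7e-5p+G: tgaggtaggaggttgtatagttG
let-7e-5p+GA: tgaggtaggaggttgtatagttGA
miR-598-3p+AT: tacgtcatcgtcgtcatcgttAT
miR-598-3p+ATC: tacgtcatcgtcgtcatcgttATC
miR-676-3p+G (chrX:100381151-100381172, plus strand, in an intron of Eda) went from 93 and 134 to 13 and 8 counts, and miR-676-3p+GT from 40 and 36 to 59 and 29. The ratio changed by -2.19 ± 0.30 for the first and 1.32 ± 0.43 for the second (SE, limma adjusted p = 0.001 and 0.043). let-7e-5p+G went from 10.2% and 9.81% to 5.28% and 4.56% of its mature sequence, and let-7e-5p+GA from 0.437% and 0.408% to 1.20% and 0.754%. Their ratio changes were -1.02 ± 0.16 and 1.17 ± 0.32 (limma adjusted p = 0.0019 and 0.02). miR-598-3p+AT went from 336 and 435 to 28 and 24 counts and miR-598-3p+ATC from 109 and 173 to 111 and 133. Their ratio changes were -1.42 ± 0.25 and 2.26 ± 0.23 (limma adjusted p = 0.0028 and 0.00024). The change between the isoforms of a pair was not tested directly.

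miR-151-5p+A passed the level of its mature sequence. With the control plasmid it had 3225 and 4076 counts before oxidation and 3 and 6 after. With the methyltransferase it had 3584 and 5037 counts before and 10226 and 7538 after oxidation, from 59.6% and 63.1% to 125% and 151.98% of its mature sequence. The ratio rose by 1.17 ± 0.15 (SE, limma adjusted p = 0.00059). miR-151-5p+AT, 1 base longer, went from 6.65% and 7.25% to 4.93% and 3.29% (-0.78 ± 0.25, limma adjusted p = 0.04).

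Ratio changes differed by terminal base, a pattern noticed after the values were seen and given with no test. Where the mature sequence ended in G and the isoform did not, 21 of 30 isoforms (of 16 mature sequences) gained and 0 lost, with a median of 2.08. Where the isoform ended in G and the mature sequence did not, 2 of 20 (of 15) gained and 11 lost, with a median of -0.99. Where neither ended in G, 23 of 126 (of 58) gained and 27 lost, with a median of 0.03. The 6 isoforms that ended in G like their mature sequence had 4 gains, 0 losses and a median of 2.99. By count, the main mature sequences ending in G had a median log2 change of -3.13 after oxidation (24 of 33 lower by edgeR), against -1.39 for A, -1.36 for C and -1.87 for T. Sequences with a mature hit, which the isoform rule left out, had 23 gains and 0 losses of 31 in the first class and 7 gains and 46 losses of 82 in the second. They share mature sequences with the isoforms and are no independent check. The 3 CT isoforms of miR-30, whose mature sequences end in G, had ratio changes from -0.58 to 0.21.

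**Figure D4:**
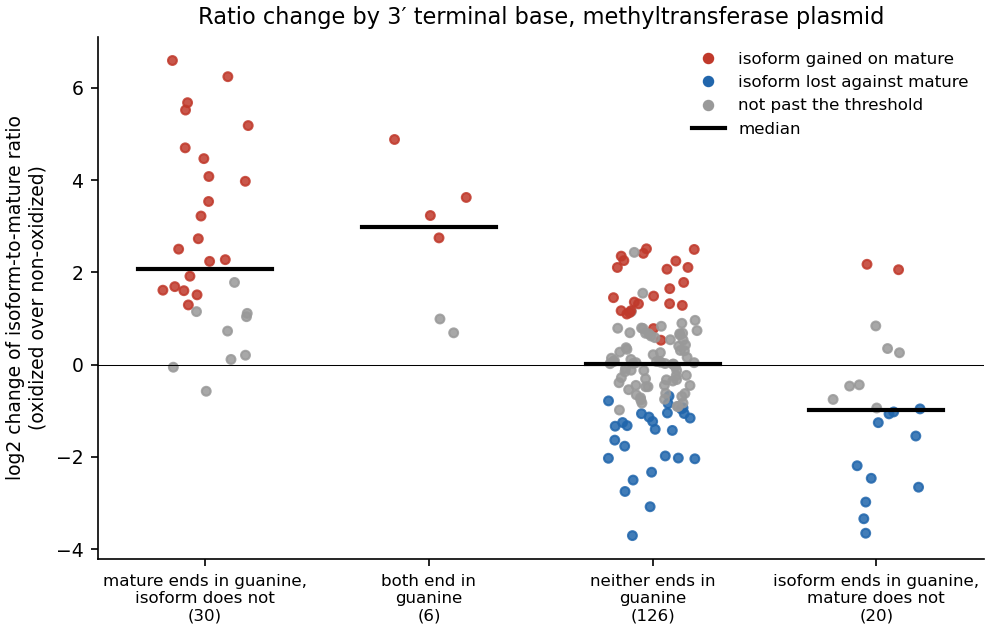
Log2 change of the isoform-to-mature ratio from non-oxidized to oxidized methyltransferase RNA (y axis) for 182 isoforms in 4 classes by whether the mature sequence and the isoform end in guanine (x axis, number of isoforms in parentheses). Points are isoforms, coloured by the limma call, and bars are medians. The medians were 2.08, 2.99, 0.03 and -0.99 from left to right.

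Both directions occurred at each common number of added bases. At an equal 5′ end, 21 of 76 isoforms with 1 added base gained and 22 lost (median 0.07). With 2 added bases 14 of 36 gained and 8 lost (median 0.26), and with 3 added bases 5 of 14 gained and 2 lost (median 0.06). Of isoforms longer at the 5′ end only, 1 of 12 gained and 0 lost (median 0.06). Mean isoform length weighted by counts was 23.7 and 23.7 nucleotides in non-oxidized and 21.82 and 22.05 in oxidized control RNA. In methyltransferase RNA it was 23.6 and 23.6 before and 23.5 and 23.5 after oxidation. The oxidized control means rest on 374 and 459 counts, of which 196 and 142 were from isoforms with no mature sequence.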

How the data were processed

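Per the labels' protocols, a QIAseq kit for miRNA was used to prepare the 8 small RNA libraries. The authors deposited 1 table of raw read counts per distinct sequence, with annotation hits and genomic match numbers. Aligner, build, trimming and use of molecular identifiers are not given in the sources used here, and intervals and floors cover counting error only. Its 12608 lines were merged to 11568 sequences. Members, lists and the terminal-base classes were chosen with earlier results of these data known. Each isoform was aligned without gaps to mature sequences of its hairpin (at least 15 shared bases, at most 1 mismatch). Positions are 1-based, from exact matches to RefSeq hairpins (GRCm38.p6); host genes are from GENCODE M21 (GRCm38).

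The count model was edgeR's quasi-likelihood fit (version 4.0.16, R 4.3.3) of 4 groups over 8 libraries, after filterByExpr and TMM scaling. Ratios were fitted with limma 3.58.1 (pseudocount 0.5, mean of at least 20 counts). DESeq2 1.42.0 was an alternative. Named isoforms were the 12 most abundant, the 2 most abundant of each end class, and the extremes of each comparison with a mean of at least 50 counts; others were chosen after their values were seen. On simulated data, edgeR recovered 178 of 200 sequences changed 8-fold among 9410 (8 unchanged called), and limma 100 of 100 changed 4-fold among 544 (8 unchanged called). Apart from the changed sequences, all groups were drawn from the same mean profile, with set dispersions and unchanged mature sequences. The simulation thus held no loss of miRNAs in oxidized control RNA and no falling mature sequences. Recovery under those conditions was not tested.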

Additional observations from a re-analysis of the deposited data

Results flagged for a closer look

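Oxidation acted differently with the 2 plasmids: its effect was higher in methyltransferase than in control RNA for 246 of 257 tested isoforms by the interaction term in edgeR (adjusted p under 0.05), and lower for 0. Among all 9851 sequences 39.6% were higher and 3% lower. The listing required counts in oxidized methyltransferase RNA, and its part in this count was not tested.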

How the results depend on the processing

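Calls by count depended on the scaling, which a ratio does not use. Values are percentages of the isoforms tested under each setting. The settings reported above had 96.5% higher with the methyltransferase in oxidized RNA. They had 0.389% higher and 98.8% lower on oxidation of control RNA, and 34.2% lower on oxidation of methyltransferase RNA. The interaction was positive for 95.7%. With the miRNA sequences alone, 48.8% were higher and 3.13% lower with the methyltransferase in oxidized RNA, 2.73% higher and 50.8% lower on oxidation of control RNA, and 16.8% higher and 14.8% lower on oxidation of methyltransferase RNA. By total counts, 77.8% were higher and 3.11% lower with the methyltransferase in oxidized RNA. On oxidation of control RNA 1.56% were higher and 78.6% lower, and of methyltransferase RNA 2.72% and 14.4%. The interaction was positive for 71.6% and negative for 2.33%. Total counts moved the median of all sequences by -2.99 and 4.30 (log2) in the first 2 comparisons. With upper quartile factors, in the same order, the values were 94.6% higher and 0.389% lower, 0.778% higher and 95.7% lower, and 2.33% higher and 16.3% lower. With only the 4 libraries compared, 146 isoforms passed the filter in oxidized RNA in place of 257, most of them at 0 in control RNA, so their direction was fixed and their calls support nothing. There 0% and 0.405% were higher on oxidation of control and methyltransferase RNA, and in the non-oxidized ratio 4.81% were higher and 3.74% lower. DESeq2 size factors, the replicate block and the DESeq2 Wald test gave 0% higher for oxidation of control RNA, and the Wald test 7.39% lower between plasmids before oxidation. A pseudocount of 5 gave 0.549% higher ratios before oxidation. With 1 isoform per mature sequence, added after seeing the data, 21 ratios gained and 20 lost. The cause was not tested for any of these. Shares over all sequences are not given for these settings, so none is read as particular to the isoforms.

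Leaving out 1 library gave 18.8% to 35.4% lower on oxidation with the methyltransferase, 0% to 0.377% higher with the control plasmid, and 0% to 2.19% higher and 0% to 2.19% lower ratios before oxidation. Ratio gains ran from 42 to 57 isoforms and losses from 26 to 46. Some signs reversed. By ratio, without 1 library, the ranges were -0.0070 to 0.29 for miR-7a-5p+T, -0.37 to 0.13 for let-7f-5p+T, -1.51 to 0.36 for miR-30e-5p+CT, -0.46 to 0.87 for miR-30d-5p+CT and -1.43 to 1.31 for miR-30a-5p+CT. With summed mature sequences miR-30d-5p+CT was at -0.093, and with edgeR and the mature count as offset miR-30a-5p+CT was at 0.42. By count with miRNA sequences alone, values below 0 became positive for let-7c-5p+T at 0.13 (from -1.26), T+miR-375-3p at 0.53, let-7f-5p+T at 0.20, miR-483 at 0.59, the T+miR-375-3p sequence 1 base shorter at 0.33 and miR-182-5p+G at 0.41 (from -0.98). By total counts T+miR-375-3p was at 0.015 and miR-483 at 0.049.

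Replicate numbers are shared by label, and the labels state no pairing. Over 864 sequences, deviations of same-numbered libraries correlated at 0.52 between the non-oxidized control and methyltransferase groups. Between the other groups the correlations were -0.07 to 0.08. The replicate block gave 96 isoforms lower on oxidation of methyltransferase RNA and 51 gains and 38 losses by ratio. Between plasmids in non-oxidized RNA it gave 0 higher and 0 lower by count. For oxidation of control RNA it gave 0 higher and 255 lower, and in oxidized RNA 248 higher.

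Oxidized control libraries were too shallow for ratios, and 2 libraries a group limit every share.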
